A study of Mus musculus with 6 samples.

Results

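The genes described here are H19 and 9 protein-coding genes of the insulin-like growth factor (IGF) system. They are the ligands Igf1 and Igf2, the receptors Igf1r and Igf2r, the binding proteins Igfbp4, Igfbp5 and Igfbp7, and the IGF2 mRNA-binding proteins Igf2bp2 and Igf2bp3. They are 10 of 24980 gene symbols listed, taken by symbol. They were chosen by values known from this same contrast, in which H19 was among the few genes called, so the differences of the 10 genes between the groups are given as a description and carry no p-value. The libraries were made from satellite cells, the stem cells of skeletal muscle, sorted by flow cytometry from hindlimb muscles of adult C57BL6/J mice. There were 3 libraries labelled scERα WT and 3 labelled scERα KO, the latter with estrogen receptor α targeted in satellite cells. All mice of both groups received tamoxifen to induce Cre, 10 mg in total. The labels name neither the promoter that drives Cre nor the alleles the WT mice carried, and whether libraries and mice correspond 1 to 1 is not stated, so the spread between libraries may in part be technical.

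In the IGF system, IGF1 and IGF2 are secreted growth factors that act through the tyrosine kinase receptor IGF1R, and through it on the PI3K-AKT-mTOR and RAS-MAPK pathways. In muscle they are known to promote growth and the proliferation and differentiation of myoblasts. IGF2R binds IGF2 and carries it to lysosomes, and secreted IGF-binding proteins hold the ligands in solution or in the matrix. H19 and Igf2 are neighbouring imprinted genes: H19, a noncoding RNA, is made from the maternal chromosome and Igf2 from the paternal chromosome, under a shared control region that binds CTCF. H19 is also the precursor of miR-675 and is known as a transcript that can bind let-7 microRNAs.

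H19 lies on chromosome 7 at 142575529 to 142578143 and Igf2 at 142650766 to 142666816, both on the minus strand (GRCm38, GENCODE), with 72.6 kb between them. The Mir675 hairpin lies inside H19, at 142577064 to 142577147. The microRNA arms below are shown because H19 carries them or is known to bind them, with the seed (bases 2 to 8) in capitals (RefSeq, GRCm38.p6).
mmu-miR-675-5p: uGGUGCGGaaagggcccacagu
mmu-miR-675-3p: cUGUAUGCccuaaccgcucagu
mmu-let-7a-5p: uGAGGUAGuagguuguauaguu

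The 3′ UTRs of the genes were searched for the complement of these seeds, as GCATACA for miR-675-3p, CCGCACC for miR-675-5p and CTACCTC for let-7, on the transcript strand. Igf1r had 2 matches to miR-675-3p, where 37.2% of 376 3′ UTRs of similar length hold at least 1. It also had 2 to let-7, where 38.6% do. Igf2bp2 and Igf2bp3 each had 1 match to let-7, against 349 of 2897 and 370 of 2784 3′ UTRs of their length. Igf2r, Igf1 and Igfbp5 had 1 each to let-7 (9.3%, 33.3% and 24.2%), while Igf2, Igfbp4 and Igfbp7 had 0 of any of the 3 motifs. The sites of the receptor and of the mRNA-binding proteins are shown with the match in capitals, since Igf1r is a known target of miR-675 and the Igf2bp family of let-7.
Igf1r, miR-675-3p, chr7:68226894-68226918, plus strand: cctcatcaccccGCATACAcctgcc
Igf1r, miR-675-3p, chr7:68227653-68227677, plus strand: cgtgaaacatttGCATACAcatcgt
Igf2bp2, let-7, chr16:22059468-22059492, minus strand: cacaaataaaagCTACCTCaggtgt
Igf2bp3, let-7, chr6:49086782-49086806, minus strand: atttttactcaaCTACCTCaggtat
The longest annotated H19 transcript, 2286 bases, held 0 of the 7-base let-7 motif, which 26.0% of 851 lincRNA transcripts of similar length hold. A match is a run of letters and not a site shown to be used.

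All values are TPM, an abundance corrected for the length of a transcript and set to a fixed total, so levels can be compared between genes. Library sums over the listed symbols ran from 295306 to 334382 TPM. TPM keeps no sequencing depth, so depth is unknown and no counting interval is given. Esr1, the targeted gene, held 7.53, 6.96 and 6.94 TPM in WT libraries 1, 2 and 3 and 2.92, 3.69 and 3.87 TPM in the KO libraries. All 9 satellite cell markers checked were present, with Pax7 between 17.9 and 32.8 TPM and Myf5 between 11.8 and 29.5 TPM. Of the other cell types, 8 markers of leukocytes summed to between 2.10 and 8.0 TPM and 8 of endothelium to between 11.9 and 24.5 TPM per library. WT library 2 carries the title number 2495, outside the run of 2582 to 2589 of the other 5; the labels do not say what the number means.

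H19 was far higher in all KO libraries, and no other member differed as much. It held 3.24, 4.24 and 1.81 TPM in WT libraries 1, 2 and 3. In the KO libraries it held 12.2, 13.9 and 16.6 TPM. The lowest KO value was thus well above the highest WT value. The means were 3.10 ± 1.22 and 14.2 ± 2.21 TPM (SD, n = 3 each), a ratio of 4.59, and the difference on the log2(TPM + 1) scale, KO minus WT, was 1.93 (SE 0.23).

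In a limma fit over all 8971 genes with enough signal, 5 genes were called at a Benjamini-Hochberg adjusted p under 0.05, which is 0.0557% of those tested. H19 was 1 of these 5, which is what it was chosen by, so nothing is read from its call. The other 8 members tested were not among the 5, and Igf2bp3 was too low to be tested. The H19 difference stayed between 1.25 and 2.29 on the log2 scale in 14 other settings, but the call was lost in 9 of them, which include leaving out WT library 1 or any 1 of the KO libraries. The median of all genes tested was itself 0.12. Median-of-ratios scaling took that median to 0.01 and the H19 difference to 1.81.

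**Figure D1:**
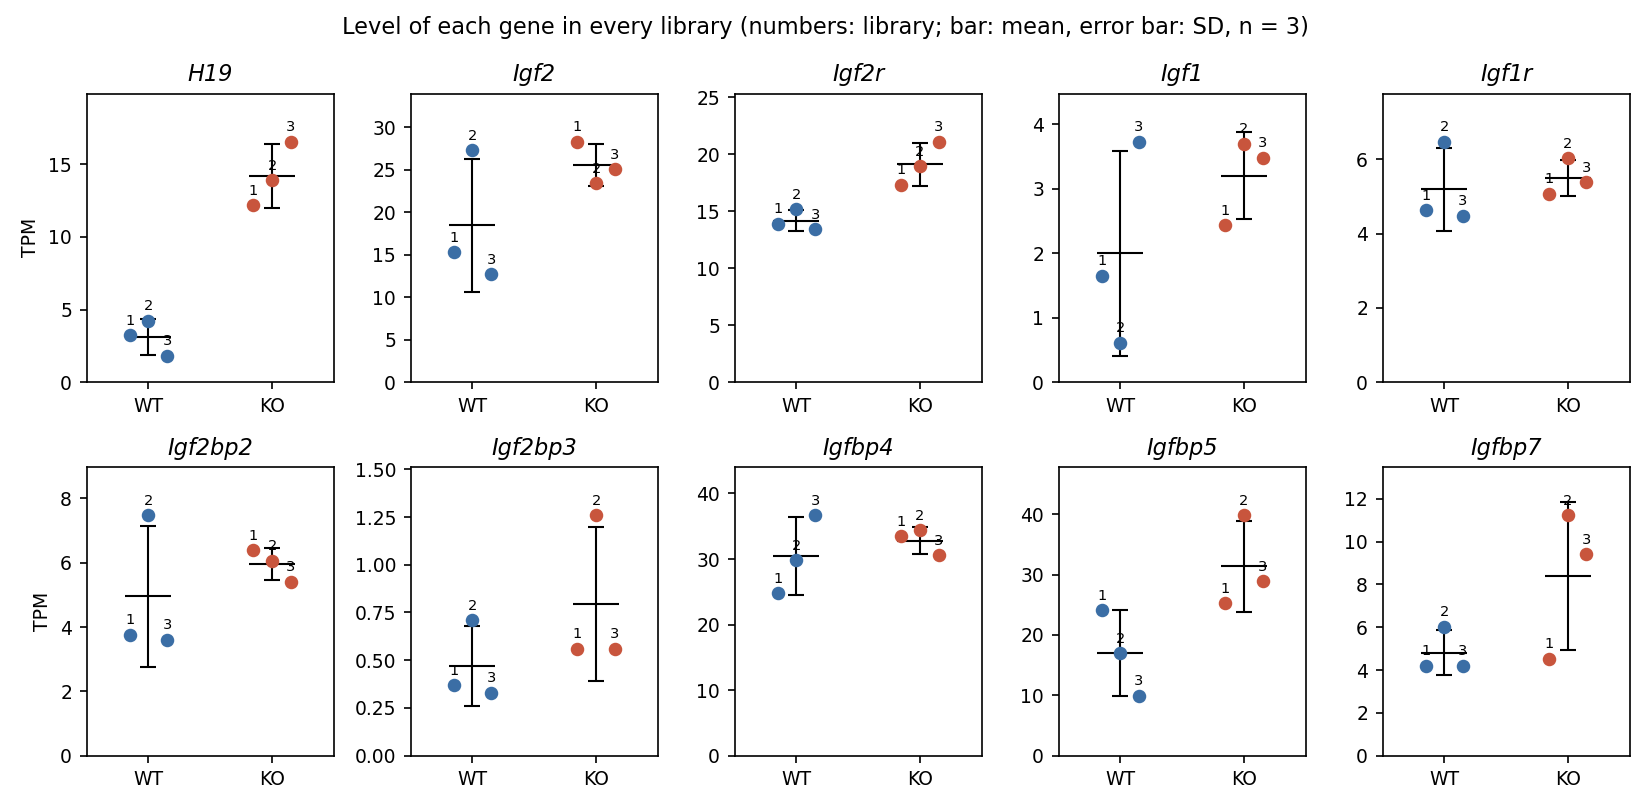
TPM (vertical axes, each from 0) of the 10 genes in the 3 WT and 3 KO libraries, 1 point per library with its number; the bar is the mean and the error bar the SD. The KO points of H19, Igf2r and Igfbp5 lie above all WT points, and in the other 7 genes the groups overlap.

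Mir675 was listed at 0 TPM in all 6 libraries, as was Mir483, which lies inside Igf2. These annotated hairpins stand for the precursor, and the mature microRNAs were not measured. Nctc1, a noncoding transcript of the same region, was below 1 TPM in all WT libraries (0.34 to 0.52) and at 0.64, 1.5 and 1.21 TPM in KO. The genes beyond H19, Mrpl23 for a mitochondrial ribosomal protein and Lsp1 for an actin-binding protein, gave different values. Mrpl23 held 7.54 to 9.36 TPM in WT and 7.0 to 9.28 TPM in KO, while Lsp1 held 6.86 ± 0.765 and 10.1 ± 1.78 TPM (SD, n = 3 each; limma adjusted p = 0.306).

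None of the factors known to act on the H19-Igf2 control region was called by limma. Ctcf, the insulator protein that binds the maternal control region, held 3.87 ± 0.115 in WT and 4.39 ± 0.561 TPM in KO (SD, n = 3 each; limma adjusted p = 0.695). Trim28, a corepressor that maintains imprints, held 8.98 ± 1.05 and 8.08 ± 0.442 TPM (limma adjusted p = 0.724). Zfp57, which guides that corepressor, was at 0.21 TPM or less in every library. Tnnt3, a fast troponin gene of the same chromosomal domain that is also a mark of muscle fibres, held 4.77 ± 2.34 and 7.48 ± 4.0 TPM (limma adjusted p = 0.693). Of 11 genes in this group 5 were tested and 0 called by limma, with 1 at an unadjusted p under 0.05.

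Igf2, the fetal-type growth factor gene next to H19, was expressed in all libraries at a level above that of H19. It held 15.3, 27.3 and 12.7 TPM in WT libraries 1, 2 and 3 and 28.3, 23.4 and 25.1 TPM in the KO libraries. WT library 2 lay among the KO values, and the other 2 WT libraries lay below all of them. The means were 18.5 ± 7.79 and 25.6 ± 2.50 TPM (SD, n = 3 each), a log2 difference of 0.52 (SE 0.25), which became 0.83 without WT library 2 and 0.30 without WT library 3. Igf2os, the antisense transcript, was at 0.17 TPM or less in every library; the sources used here do not say whether strand was used, so reads of overlapping genes on opposite strands cannot be told apart.

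The ratio of H19 to Igf2 within a library does not depend on how the library is scaled. It was 0.211, 0.155 and 0.142 in WT libraries 1, 2 and 3 and 0.430, 0.594 and 0.661 in the KO libraries. The 2 ranges did not overlap, although WT library 2 and the KO libraries had similar Igf2. The 2 neighbouring genes therefore differed between the groups by unequal amounts.

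**Figure D2:**
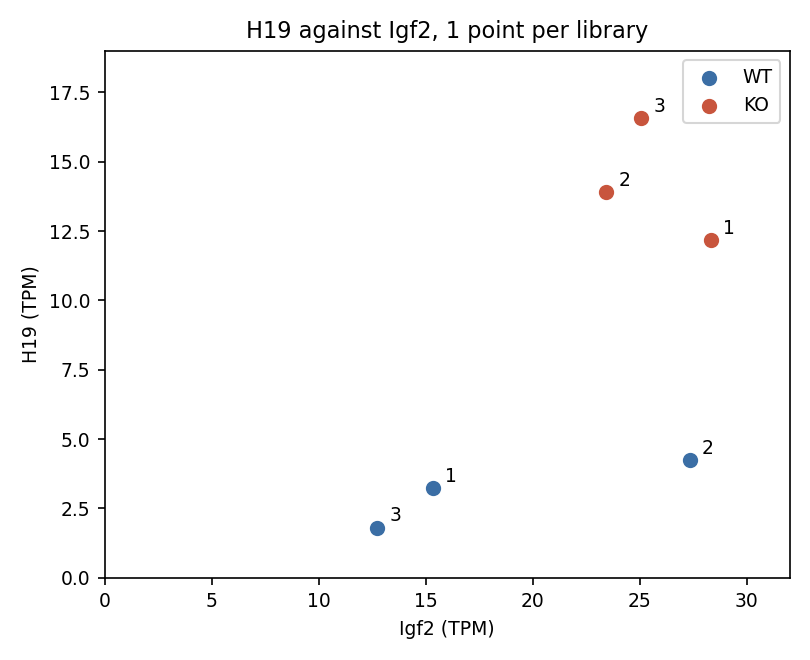
H19 TPM (vertical axis) against Igf2 TPM (horizontal axis), 1 point per library, numbered. WT library 2 has 27.3 TPM of Igf2 and 4.24 TPM of H19, whereas the KO libraries have 23.4 to 28.3 TPM of Igf2 and 12.2 to 16.6 TPM of H19.

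Igf1, the adult growth factor that muscle, liver and stromal cells make, was low and varied most among the WT libraries. It held 1.65, 0.61 and 3.73 TPM in WT libraries 1, 2 and 3 and 2.43, 3.70 and 3.48 TPM in the KO libraries. The WT range contained all KO values. The log2 difference was 0.61 (SE 0.34), and it was 0.23 without WT library 2 and 1.01 without WT library 3. Igf2 transcript exceeded Igf1 transcript in every library, by 3.41 to 44.8 times.

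Of the receptor genes, Igf2r was higher in all KO libraries and Igf1r overlapped. Igf2r, which encodes the clearing receptor for IGF2, held 13.9, 15.2 and 13.4 TPM in WT libraries 1, 2 and 3. In the KO libraries it held 17.3, 18.9 and 21.1 TPM. All KO values lay above all WT values, and the log2 difference was 0.40 (SE 0.13), or 0.26 with median-of-ratios scaling and 0.24 with quantile normalization. Airn, the noncoding RNA that runs antisense through part of Igf2r (chromosome 17, 12741311 to 12860136), held 12.4 to 17.5 TPM in WT and 13.5 to 20.8 TPM in KO.

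Igf1r, the signalling receptor, held 4.63, 6.48 and 4.48 TPM in WT libraries 1, 2 and 3 and 5.08, 6.04 and 5.39 TPM in the KO libraries. The KO values lay inside the WT range. The log2 difference was 0.08 (SE 0.15), and with median-of-ratios scaling or quantile normalization it was -0.04 or -0.07. It was 0.22 without WT library 2 and near 0 without WT library 1, WT library 3 or KO library 2. The ratio of Igf2r to Igf1r was 2.34 to 3.0 in WT and 3.13 to 3.91 in KO, with no overlap.

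Among the binding proteins, Igfbp5 had the largest difference. Igfbp5, a matrix-bound modulator of IGF action that is expressed in myogenic cells, held 24.1, 16.9 and 9.94 TPM in WT libraries 1, 2 and 3. In the KO libraries it held 25.3, 39.9 and 28.9 TPM. The groups did not overlap, but KO library 1 was barely above WT library 1. The log2 difference was 0.90 (SE 0.30), and it was 0.58 without WT library 3 and 1.18 without WT library 1.

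Igfbp4, a binding protein that mainly restrains IGF action, was the most abundant member on average and differed little. It held 24.8, 29.9 and 36.7 TPM in WT and 33.5, 34.4 and 30.6 TPM in KO libraries 1, 2 and 3. The KO values lay inside the WT range. The log2 difference was 0.12 (SE 0.17), and it was -0.03 with median-of-ratios scaling and -0.02 with quantile normalization. Without WT library 1 it was -0.01 and without WT library 3 it was 0.26.

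Igfbp7, a low-affinity member that is abundant in vessels, held 4.20, 6.03 and 4.20 TPM in WT libraries 1, 2 and 3 and 4.54, 11.2 and 9.40 TPM in the KO libraries. KO library 1 lay among the WT values and the other 2 above them. The log2 difference was 0.63 (SE 0.28), and it was 0.40 without KO library 2 and 0.97 without KO library 1. Of the binding proteins outside the 10 genes, Igfbp3 and Igfbp6 were near 1 to 2 TPM, Igfbp2 was at 0.06 TPM or less and Igfbp1 was listed at 0 in all libraries. The 7 transcripts summed to 54.6, 56.1 and 52.7 TPM in WT and 66.2, 90.1 and 73.4 TPM in KO libraries 1, 2 and 3, of which Igfbp4 and Igfbp5 made up between 81.1% and 89.5%.

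Igf2bp2 and Igf2bp3 encode RNA-binding proteins that bind Igf2 and other mRNAs, the former known in muscle as a partner of HMGA2 in myoblast growth. Igf2bp2 held 3.76, 7.48 and 3.61 TPM in WT libraries 1, 2 and 3 and 6.39, 6.06 and 5.41 TPM in the KO libraries. WT library 2 had the highest value of all 6, and the other 2 WT libraries the lowest. The log2 difference was 0.28 (SE 0.23), and it was 0.57 without WT library 2, 0.15 without WT library 1 and 0.13 without WT library 3. With median-of-ratios scaling it was 0.16 and with quantile normalization 0.13. Igf2bp3 held 0.37, 0.71 and 0.33 TPM in WT and 0.56, 1.26 and 0.56 TPM in KO libraries 1, 2 and 3, with overlap, and did not pass the filter. Igf2bp1, the remaining family member, was at 0.02 TPM or less.

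**Figure D3:**
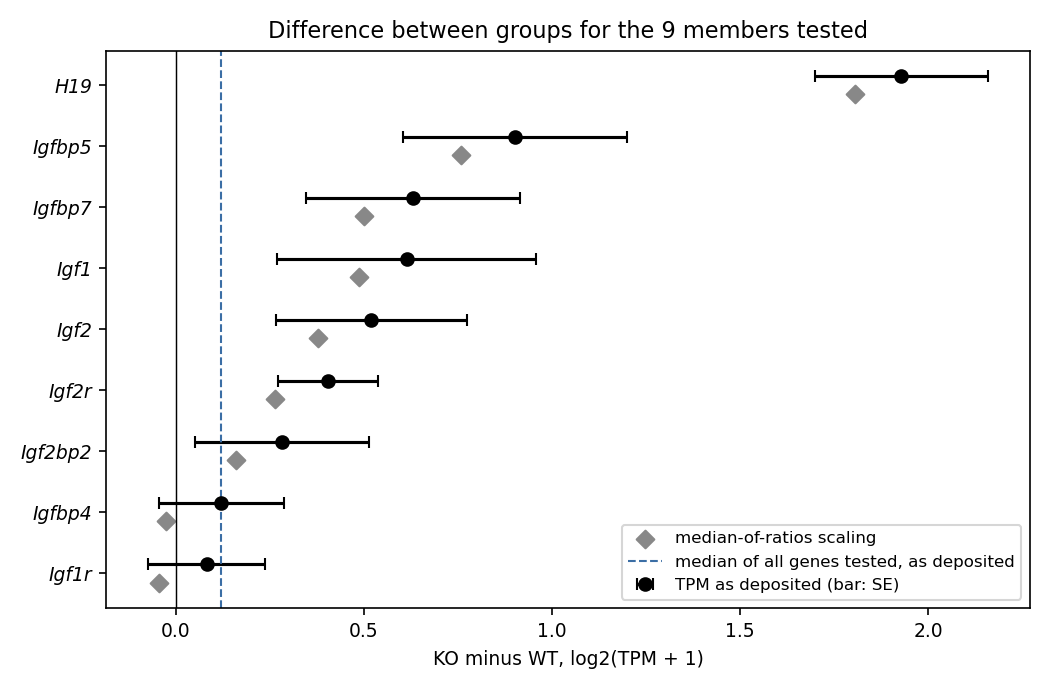
KO minus WT on the log2(TPM + 1) scale (horizontal axis) for the 9 members tested, as circles with SE for the deposited values and as diamonds after median-of-ratios scaling; the dashed line is the median of all genes tested, 0.12. H19 stands at 1.93 and Igfbp5 at 0.90, while Igfbp4 and Igf1r turn below 0 after scaling.

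In all, 3 of the 9 members tested (H19, Igf2r and Igfbp5) had all KO libraries above all WT libraries, which 13.5% of all genes tested did, and 0 had all below, which 3.07% did. The members tested had a median log2 difference of 0.52. These genes were chosen with the contrast known, so the counts are a description of the choice as well as of the data.

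Ordered by mean TPM over the 6 libraries, the members were Igfbp4 (31.6), Igfbp5 (24.2), Igf2 (22.03), Igf2r (16.6), H19 (8.65), Igfbp7 (6.60), Igf2bp2 (5.45), Igf1r (5.35), Igf1 (2.60) and Igf2bp3 (0.632). Of the 9 neighbouring pairs in this order, 8 had ranges that overlapped, and the pair of Igf1r above Igf1 did not. H19 was below Igf2r in all 6 libraries, although the ranges over libraries met. Its place among Igfbp7, Igf2bp2 and Igf1r depended on the group: in WT libraries it was below Igfbp7 in every library, and in KO libraries above it in every library.

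By Pearson correlation of log2(TPM + 1) over the 6 libraries, a description in which the 2 genotypes form separate clusters, the genes most like H19 were Gxylt2 (r = 0.993), Map4k4 (0.993), Bicc1 (0.992), Smad2 (0.992) and a symbol that the file lists as a date (0.994). Gxylt2, a glycosyltransferase gene, held 5.13 ± 1.03 in WT and 10.51 ± 0.966 TPM in KO (SD, n = 3 each), and Map4k4, a kinase gene, 23.8 ± 1.37 and 29.9 ± 1.44 TPM. The genes that ran most opposite were Tatdn3 (r = -0.984), Neu2 (-0.981), Pla2g12a (-0.980), Slco2a1 (-0.977) and Commd6 (-0.972). Among the members, Igf2r was closest to H19 (r = 0.966) and Igfbp4 least so (0.143).

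The pattern of Igf2 was another one, with WT library 2 among the KO libraries. The genes most like it were Brd7 (r = 0.997), Sarnp (0.995), Wbp11 (0.995), Foxp1 (0.992) and Ezh2 (0.991), and the members closest to it were Igf2bp2 (0.945) and H19 (0.762). The opposite pattern was that of Thbs2 (r = -0.955), Nrep (-0.946), Nab2 (-0.939), Mrps23 (-0.918) and Rpap3 (-0.917). Ezh2, a Polycomb methyltransferase gene, held 5.80, 7.43 and 5.19 TPM in WT libraries 1, 2 and 3 and 8.0, 7.26 and 7.56 TPM in KO.

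Several members ran beside marker genes of a cell type, library by library. The 3 pairs given were picked after their values were seen, from 342 correlations with single markers and 90 with summed marker lists, and were not the 3 closest. Igf2 ran with Myf5, a myogenic factor of satellite cells, at r = 0.966 over 6 libraries. With the sum of the 9 satellite cell markers it had 0.50, and with Pax7, the lowest of the 9, 0.07. The other satellite cell markers gave 0.733 (Cdh15), 0.705 (Vcam1), 0.422 (Itga7), 0.411 (Cxcr4), 0.280 (Chodl), 0.224 (Calcr) and 0.116 (Sdc4). Sdc4 was the largest part of the sum, at 156.7 to 266.1 TPM. Myf5 held 18.7, 29.5 and 11.8 TPM in WT libraries 1, 2 and 3 and 29.4, 26.9 and 25.8 TPM in KO, so that WT library 2 again stood with the KO libraries. Igf1 ran with Col1a1, a fibrillar collagen of fibroblasts (r = 0.889), which held 2.04, 0.80 and 9.22 TPM in WT and 2.60, 4.08 and 9.70 TPM in KO. With the other fibro-adipogenic markers tested, Col1a2, Dpt, Ly6a and Dcn, Igf1 had r = 0.795, 0.592, 0.311 and -0.353. With the summed fibro-adipogenic list it had r = 0.749.

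The single marker closest to Igfbp7 was Ly6a (r = 0.974), which is listed here for fibro-adipogenic progenitors. Among summed lists Igfbp7 ran closest to the endothelial markers (r = 0.931), which were at 12.2, 18.1 and 13.95 TPM in WT libraries 1, 2 and 3 and at 11.9, 24.5 and 18.8 TPM in KO. The mural cell markers, at 7.07 to 11.04 TPM in WT and 5.42, 20.1 and 13.5 TPM in KO, took the same order in the KO libraries. Igfbp7 was nearly as close to them (r = 0.906), and had 0.821 with the Schwann cell, 0.793 with the fibro-adipogenic and 0.749 with the muscle fibre list. With Pax7 it had r = 0.865, with the proliferation list 0.297 and with the myogenic commitment list, which includes Myod1, -0.773. Of the endothelial markers tested, Cdh5, Flt1 and Pecam1 had r = 0.958, 0.950 and 0.879 with Igfbp7. Tek, the largest part of the endothelial sum at 6.04 to 8.32 TPM, had 0.515. All 4 endothelial markers tested had a higher value in KO (3 with median-of-ratios scaling or quantile normalization), as did 77.57% of all genes tested in the deposited values. Of the 4, 0 were called by limma and 0 had an unadjusted p under 0.05. None of the 8 was at 0, and Kdr, Tie1, Emcn and Cldn5 were at 1.28 TPM or less. In these sorted populations a change in the number of cells of a type and in RNA per cell cannot be told apart, and the part of endothelial RNA in Igfbp7 was not tested.

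**Figure D4:**
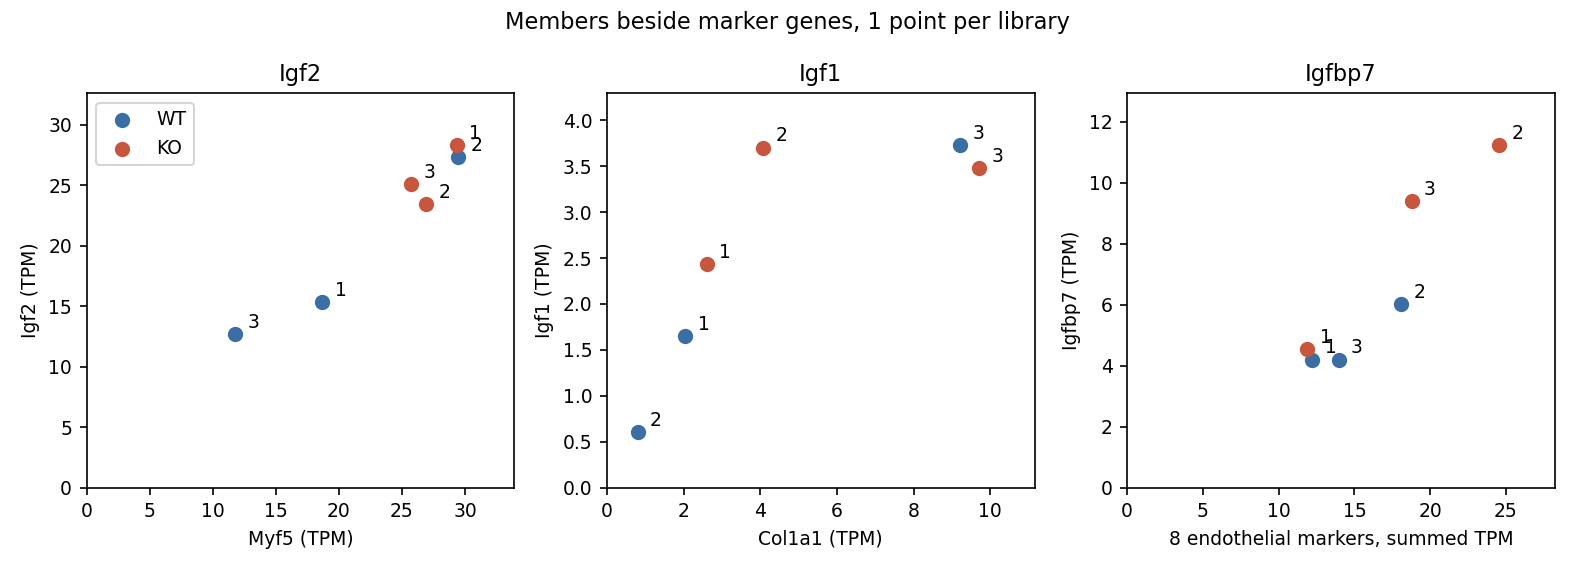
TPM of Igf2, Igf1 and Igfbp7 (vertical axes) against Myf5 TPM, Col1a1 TPM and the summed TPM of 8 endothelial markers (horizontal axes), 1 numbered point per library. In the first panel WT library 2 lies with the KO libraries at 27.3 TPM of Igf2 and 29.5 TPM of Myf5; in the last, KO library 1 lies with the WT libraries at 4.54 TPM of Igfbp7.

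The 8 markers of fibro-adipogenic progenitors did not share a single pattern. They summed to 40.2 to 47.1 TPM in WT and 55.2 to 74.2 TPM in KO, and 4 of 5 tested had a higher value in KO, with 0 called by limma and 2 at an unadjusted p under 0.05. Of all genes tested, 77.57% had a higher value in KO and 10.6% had such a p in either direction. Most of the sum was Dpt, a matrix protein gene (26.8 ± 3.91 in WT and 44.2 ± 6.01 TPM in KO; SD, n = 3 each), and Dpt was the only 1 of the 8 whose groups did not overlap. Dcn, which encodes decorin, held 8.26 to 13.4 TPM in WT and 7.32 to 13.0 TPM in KO. Over the 6 libraries H19 had r = 0.847 with Dpt, 0.675 with Col1a2, 0.587 with Ly6a, 0.161 with Col1a1 and -0.004 with Dcn. For Igfbp5 the same 5 genes gave 0.854, 0.472, 0.508, -0.10 and 0.14. With the sum of the 8 markers H19 had r = 0.831 and Igfbp5 0.716, for both the closest of the summed lists. The closest single marker was for both one of satellite cells, Cdh15 for H19 (r = 0.905) and Vcam1 for Igfbp5 (0.861). H19 also had 0.851 with Birc5, 0.850 with Vcam1 and 0.750 with Myf5, but 0.313 with Pax7 and -0.331 with Sdc4. The defining fibro-adipogenic markers Pdgfra and Pi16 were at 0.31 and 0.28 TPM or less in every library. The 6 proliferation markers summed to 2.44 to 6.65 TPM in WT and to 14.3, 5.02 and 35.9 TPM in KO libraries 1, 2 and 3, and the 6 Schwann cell markers to 6.57 to 8.85 TPM and 8.06 to 20.9 TPM. The 6 muscle fibre markers summed to 9.99 to 24.9 TPM in WT and 6.97 to 37.5 TPM in KO, with overlap. Of the proliferation markers, Birc5 was above all WT libraries in all KO libraries (0.91 to 1.10 and 1.61 to 4.37 TPM). The part of these marker groups in the H19 value was not tested.

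The other genes of the pathway showed no call. Of 17 further IGF system genes 4 were tested and of 40 genes of IGF receptor signalling 38 were. None of these 42 was called by limma, and 5 had an unadjusted p under 0.05, all higher in KO, against 10.6% of all genes tested. That number was 3 with median-of-ratios scaling or quantile normalization and 0 without WT library 1. In 4 of the 42, Ptpn11, Irs1 and Hras among them, all KO libraries lay above all WT libraries, a smaller share than the 13.5% of all genes tested. Insr, the insulin receptor gene, held 1.91 ± 0.767 in WT and 1.70 ± 0.489 TPM in KO (SD, n = 3 each; limma adjusted p = 0.874).

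Igfbp6, an IGF2-preferring binding protein, held 0.85, 1.66 and 0.80 TPM in WT and 1.59, 2.73 and 1.85 TPM in KO libraries 1, 2 and 3 (limma adjusted p = 0.368). Igfbp3, the main carrier of IGFs in serum, held 0.65, 1.54 and 1.02 TPM and 1.29, 1.91 and 2.64 TPM (limma adjusted p = 0.449). In both, 1 WT library lay among the KO values. Htra1, a secreted protease, held 2.74 ± 1.47 and 2.87 ± 0.491 TPM (SD, n = 3 each; limma adjusted p = 0.876). The protease genes Pappa and Pappa2 were at 0.09 TPM or less, and Ins2, the neighbour of Igf2, at 0.11 TPM or less.

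In receptor signalling, Irs1, the docking protein for the activated receptor, held 3.08 ± 0.0964 in WT and 4.11 ± 0.831 TPM in KO (SD, n = 3 each; limma adjusted p = 0.493). Irs2, its relative and the more abundant of the pair, was at 22.7 ± 1.67 and 22.9 ± 3.16 TPM. Ptpn11, the phosphatase SHP2, held 6.11 ± 0.113 and 7.67 ± 0.465 TPM (limma adjusted p = 0.432). Grb10, an imprinted adaptor that restrains insulin and IGF signalling, held 17.98 ± 3.26 and 23.5 ± 1.92 TPM (limma adjusted p = 0.455). The 38 genes had a median log2 difference of 0.10, 31 with a higher value in KO, beside 0.12 over all genes, of which 77.57% had a higher value in KO. With median-of-ratios scaling the median was -0.02 and 15 were higher, and with quantile normalization it was -0.03 and 12 were higher.

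**Figure D5:**
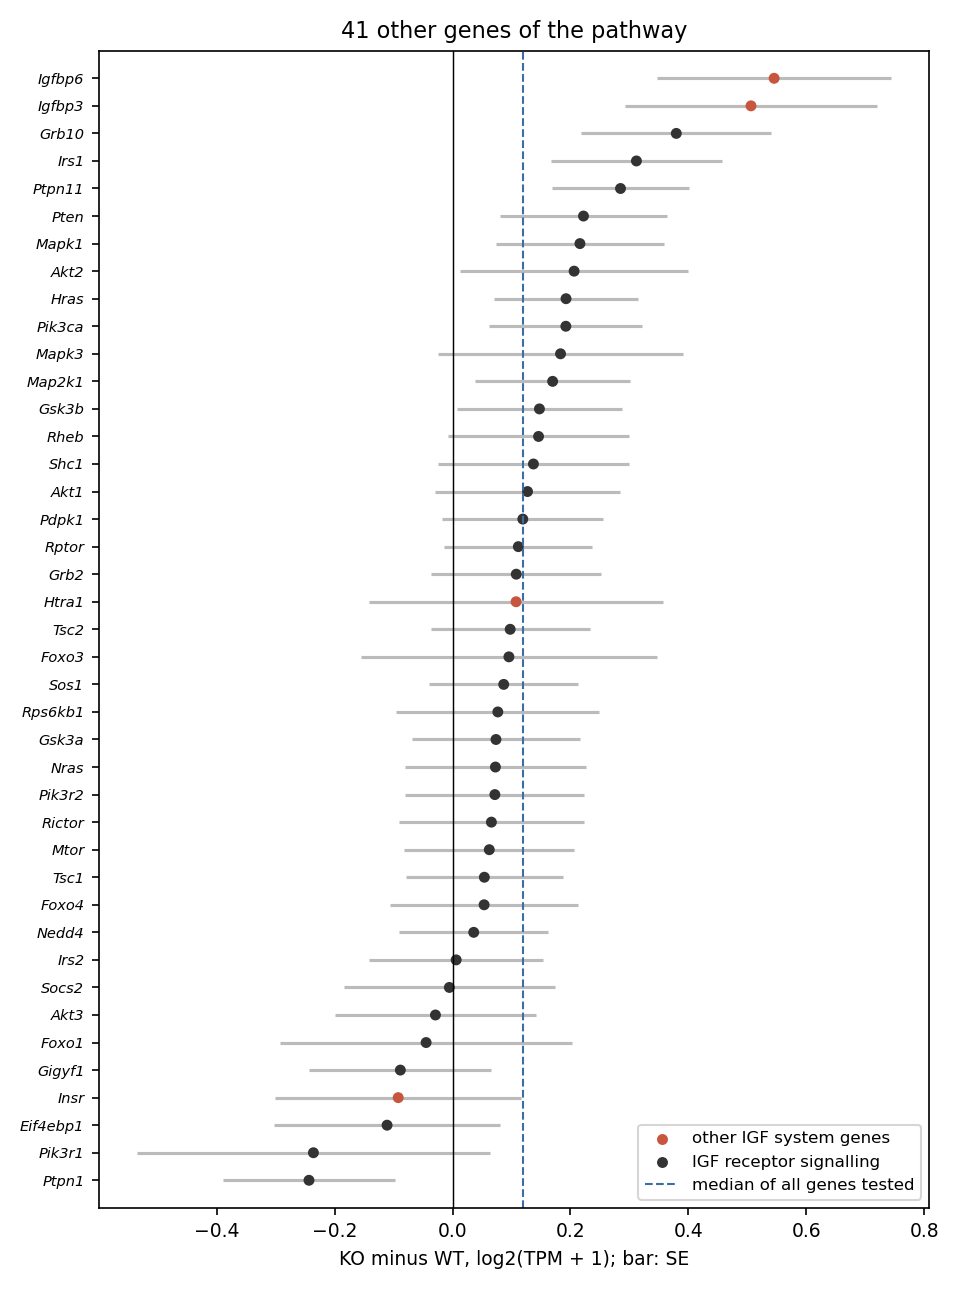
KO minus WT on the log2(TPM + 1) scale with SE (horizontal axis) for 41 of the 42 other genes of the pathway that were tested, sorted by value; the dashed line is the median of all genes tested, 0.12. Igfbp6 and Igfbp3 are at the top, at 0.55 and 0.51, and none of the 42 was called.

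Genes known as targets of the H19-linked microRNAs were not called either. Of 4 targets of miR-675, Smad1 held 4.47 ± 1.16 in WT and 5.83 ± 0.529 TPM in KO (limma adjusted p = 0.536), Smad5 4.61 ± 0.868 and 5.58 ± 0.562 TPM (limma adjusted p = 0.607; SD, n = 3 each), and Cdc6 was at 0.37 TPM or less. With Igf1r, given above, the 3 tested had a median log2 difference of 0.24, beside 0.12 over all genes, and 0 had an unadjusted p under 0.05. The seed search found 0 matches to either arm of miR-675 in the 3′ UTR of Smad1. Smad5 had 1 to miR-675-3p, which 23.7% of 3′ UTRs of similar length hold, and Cdc6 1 to miR-675-5p (3.0%). Of 14 let-7 targets 7 were tested, with a median of 0.27, 0 called by limma and 1 at an unadjusted p under 0.05, against 10.6% of all genes tested. Median-of-ratios scaling took the medians of the miR-675 and let-7 targets to 0.11 and 0.12, beside 0.01 over all genes. With quantile normalization they were 0.09 and 0.12, beside -0.001. With protein-coding genes and H19 rescaled to a common total they were 0.34 and 0.35, beside 0.22. In that setting 2 of the 3 miR-675 targets had an unadjusted p under 0.05 (limma), as did 1554 higher and 191 lower of 8159 genes. Hras was at 1.45 ± 0.157 and 1.80 ± 0.202 TPM, Hmga1 at 17.5 ± 4.68 and 21.8 ± 6.96 TPM and Ccnd1 at 3.11 ± 1.88 and 5.97 ± 3.25 TPM (SD, n = 3 each). Lin28a and Hmga2, the latter upstream of Igf2bp2 in myoblasts, were at 0.05 and 0.12 TPM or less. Myc, the most abundant gene of that axis, held 96.8 ± 26.5 and 116 ± 24.5 TPM, and Sp1 8.56 ± 1.34 and 8.45 ± 0.407 TPM; 0 of the 3 tested in the axis were called by limma or had an unadjusted p under 0.05.

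Other imprinted growth genes, among them noncoding RNAs of the Dlk1-Dio3 cluster, were set beside H19. Of 18 genes 13 were tested and 0 called by limma, with 7 at an unadjusted p under 0.05, all higher in KO, and 8 in which the groups did not overlap and KO was above. Of all genes tested, 10.6% had such a p in either direction and 13.5% had KO above WT without overlap. The median of the 13 was 0.50 on the log2 scale, or 0.35 with median-of-ratios scaling. The rescaling of protein-coding genes and H19 keeps 10 of them, without the noncoding Rian, Mirg and Meg3. Of these 10, 1 was called by limma, where 39 genes were called higher and 48 lower of all 8159 tested. Mest held 2.51 ± 0.506 in WT and 7.09 ± 2.42 TPM in KO (SD, n = 3 each; limma adjusted p = 0.137). The noncoding RNAs Rian, Mirg and Meg3 of the Dlk1-Dio3 cluster were at 25.1 ± 3.65 and 47.3 ± 1.51 TPM, 3.56 ± 0.808 and 6.11 ± 0.219 TPM, and 34.0 ± 9.09 and 62.1 ± 9.80 TPM (limma adjusted p = 0.0971, 0.185 and 0.194). Dlk1 itself was at 0.97 TPM or less.

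Promoter sequence, 300 bases from upstream of a start site to just past it, was matched by symbol for 9 of the 10 genes, in 12 windows. The start sites of these windows are not always the GENCODE gene start. The Igf1r window ends at 67952306 on chromosome 7, before the GENCODE start at 67952827, and the Igf1 window lies inside the annotated gene. The estrogen response element, 2 inverted GGTCA half-sites 3 bases apart on either strand, was in 0 of these 12 windows and in 0.07% of 32851 windows of the same length. A single GGTCA half-site on either strand was in 7 of the 12, including those of Igf2r and Igf1r and 2 of the 4 windows of Igf2, and in 40.5% of all. No match says only that these letters are not in this window. H19 is not among the 9.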

How the data were processed

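The authors deposited TPM per gene symbol, 1 column for each of the 6 libraries. Per the submitters' processing notes, kallisto, Trimmomatic 0.33, CASAVA and FastQC were used, and mm10 and GRCm38 are named, without roles; strandedness, the annotation and the way transcripts were summed are not given in the sources used here. Groups came from the genotype labels, and columns were matched to samples by the number in the title.

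The 8971 genes that reached 1 TPM in 3 libraries or more were fitted in R 4.3.3 by limma 3.58.1, on log2(TPM + 1), using a trended eBayes and two-sided p-values adjusted by Benjamini-Hochberg across all of them. Fold changes on this scale understate low genes. The procedure was run on simulated data with independent normal errors and no shift common to all genes. That run does not bear on how far the calls depend on scaling. Members and lists were chosen with earlier results of these data known. All 10 members are named, and of each list up to 4 tested genes with the smallest p; others were named after their values were seen. A gene this rule names is not reported here. No set test was run. Coordinates and 3′ UTRs are those of GENCODE vM21 (GRCm38), using the longest 3′ UTR of a gene, of at least 50 bases, and regions within 20% of its length for comparison. Figures were drawn with matplotlib 3.10.9.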

Additional observations from a re-analysis of the deposited data

How the results depend on the processing

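H19 kept its direction under all 14 alternatives. Its call held with a pseudocount of 5, with the rescaling of protein-coding genes and H19 to a common total, without the variance trend, and without WT library 2 or 3. It was lost in the other 9: a pseudocount of 0.1, no filter, a filter on mean TPM, median-of-ratios scaling, quantile normalization, and without WT library 1 or KO library 1, 2 or 3. For the 8 other members tested, 5 of 112 values fell below 0, those of Igf1r and Igfbp4 under median-of-ratios scaling and quantile normalization and that of Igfbp4 without WT library 1, and 0 were called. The IGF system and signalling genes called numbered 0 in every setting.

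The number of genes called higher, 3 as reported, was 0 with a pseudocount of 0.1, 0 with no filter, 0 with a filter on mean TPM, 1 with median-of-ratios scaling, 1 with quantile normalization and 39 with the rescaling. It was between 0 and 4 when 1 library was left out, and 0 without KO library 3. The number called lower, 2 as reported, was 0 with a pseudocount of 5, 0 with no filter, 0 with a filter on mean TPM, 0 with quantile normalization and 48 with the rescaling, and between 0 and 2 when 1 library was left out. It was 0 without KO library 1, 2 or 3. At an unadjusted p under 0.05 (limma), 708 genes were higher and 239 lower as reported. The balance turned to 355 and 435 with median-of-ratios scaling and to 368 and 435 with quantile normalization. It was 728 and 243 with a pseudocount of 0.1, 707 and 231 with a pseudocount of 5, 1198 and 374 with no filter, 723 and 243 with the filter on mean TPM, and 1554 and 191 with the rescaling. Leaving out 1 library gave 438 to 1202 higher and 197 to 245 lower. The causes were not tested. Titles give no shared replicate numbers, so no paired analysis was possible because nothing pairs the libraries. Without depth, the error of single low values, such as those of Igf1 and Igf2bp3, is unknown.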
